A study of Danio rerio with 96 samples.

Results

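The cytosines described here are those of 8 bisulfite amplicons that are followed by A, C or T instead of G. A site was counted where it lay on the amplified strand, more than 30 bp inside the amplicon, and had at least 30 reads in a library. One position on chromosome 15, 4079297, was left out by the rule that defines the set. Its median level was 9.20% with single libraries between 0.250% and 90.2%, while the highest median of a site that was kept was 2.74%. The 8 amplicons span 14499688 to 14499886 of chromosome 2, 25887983 to 25888164 of chromosome 3, 22488700 to 22488907 of chromosome 8, 4079178 to 4079402 of chromosome 15 and 8404129 to 8404240 of chromosome 16 (1-based, build GRCz10). On chromosome 6 the first amplicon spans 27961540 to 27961753, the second 41099247 to 41099469 and the third 49743949 to 49744115. The rule left 156 sites out of 309 cytosines listed in the amplicons, beside 50 CpGs and the sites near the amplicon ends. They gave 13325 values of 1 site in 1 library. By dinucleotide, 51 sites were CA, 33 were CC and 72 were CT. By the base after that, 16 CA, 10 CC and 21 CT sites stood in a CHG context (H is A, C or T) and the other 35, 23 and 51 in a CHH context.

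The DNA was taken from zebrafish larval heads, dissected 5 days after fertilisation. Of the 4 groups of 24 libraries, the first was GR mutant with 100 µM betamethasone (a synthetic glucocorticoid) and the second GR mutant with 0.2% ethanol as control. The third was wild-type with 100 µM betamethasone and the fourth wild-type with 0.2% ethanol. GR is the glucocorticoid receptor, a nuclear receptor through which cortisol and betamethasone act. The genotype is named in the labels as GR mutant without the allele. The labels do not say whether a library is 1 larva or whether libraries share a clutch, so the p-values reflect the spread among the libraries alone, which may be technical.

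In vertebrates, DNA methylation sits mostly on CpG, which DNMT1 copies onto the new strand after replication. Methylation outside CpG has no such copying on both strands and is placed by de novo methyltransferases of the DNMT3 family. In mammalian brain it gathers in neurons and is found mainly at CA, above all at CAC. Bisulfite turns unmethylated cytosine into uracil, which is read as T. A cytosine that stays C may be methylated or may have escaped conversion, and a call by itself does not tell these apart. The levels below are therefore shares of reads called methylated.

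The sequences below show those 6 of the 10 sites with the highest medians that have at least 10 known letters in a window of 21 bases, and then the chromosome 2 sites among the 5 with the highest single values, since these are the sites with the highest levels described below. The deposited calls give each cytosine, the base after it and the G of a CHG; a base that they do not give is written n. No genome of the build was used. Capitals mark the site and the 2 bases after it, and the windows read 5′ to 3′ on the strand named (build GRCz10 per the submitters' processing notes).
chr6:49743970-49743990, plus strand: annncannncCACanccgnnc
chr6:49743972-49743992, plus strand: nncannnccaCANccgnnctc
chr8:22488754-22488774, plus strand: gnnctgncanCAGnncccanc
chr8:22488764-22488784, plus strand: cagnncccanCANcagncgnn
chr8:22488767-22488787, plus strand: nncccancanCAGncgnncan
chr6:41099404-41099424, plus strand: nnncactgncCANnnncgnnn
chr2:14499812-14499832, minus strand: gnctgccgnnCTCgnctcgnn
chr2:14499770-14499790, minus strand: nccgnctcgnCTGctnnnnnn
chr2:14499747-14499767, minus strand: cagnctnnnnCTNnnnctcgn
chr2:14499759-14499779, minus strand: tgctnnnnnnCTCagnctnnn
All 6 of the first set are CA sites, and 5 of them have a CpG among the letters shown downstream of the site. Known letters come from listed cytosines, CpGs included, so the limit of 10 letters favours windows that hold them. It left out 25888105, the only CT site among the 10, which had 4 known letters. How often other sites have a CpG as near was not tested, so both counts describe the windows shown only. The chromosome 2 sites are CT sites with low medians and single values up to 88.4%.

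Libraries held 19 to 2009599 cytosine calls over all cytosines, with a median of 1227600. Betamethasone-treated wild-type library 2, with 19 calls, gave no value. Of the other 95 libraries, 94 had at least 4 of the 8 amplicons and entered the library level: 23 GR mutant betamethasone, 24 GR mutant control, 23 wild-type betamethasone and 24 wild-type control. All 8 amplicons were covered in 63 libraries. The amplicons differed widely in depth. The median was 199 reads per site in the first chromosome 6 amplicon, 214 on chromosome 8, 240 on chromosome 3, 550 on chromosome 2 and 1445.5 on chromosome 16. It was 7913 and 8009 reads in the second and the third chromosome 6 amplicons and 8010 on chromosome 15. Depth also differed between groups in some amplicons. On chromosome 8 the median was 61 reads in GR mutant betamethasone, 187 in GR mutant control, 1379 in wild-type betamethasone and 212 in wild-type control libraries. In the same order it was 136, 4475, 1109 and 141 reads on chromosome 3. On chromosome 16 it was 722, 1706, 2238 and 518.5. The reads carry no molecular identifiers and are copies made by PCR, so an interval from read counts covers counting error only.

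Libraries of a group with neighbouring replicate numbers resembled each other. In the second chromosome 6 amplicon the level of 2 neighbours differed by a median of 0.184 percentage points (88 pairs), against 0.435 for other pairs of the same group (970 pairs). The median was smaller between neighbours in 7 of 8 amplicons, the exception being chromosome 2 with 1.05 against 0.852 percentage points. The labels do not say what a replicate number stands for. Group comparisons were therefore repeated with runs of 4 neighbouring numbers averaged, which leaves 6 values per group. This alternative was chosen after seeing the data.

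**Figure D1:**
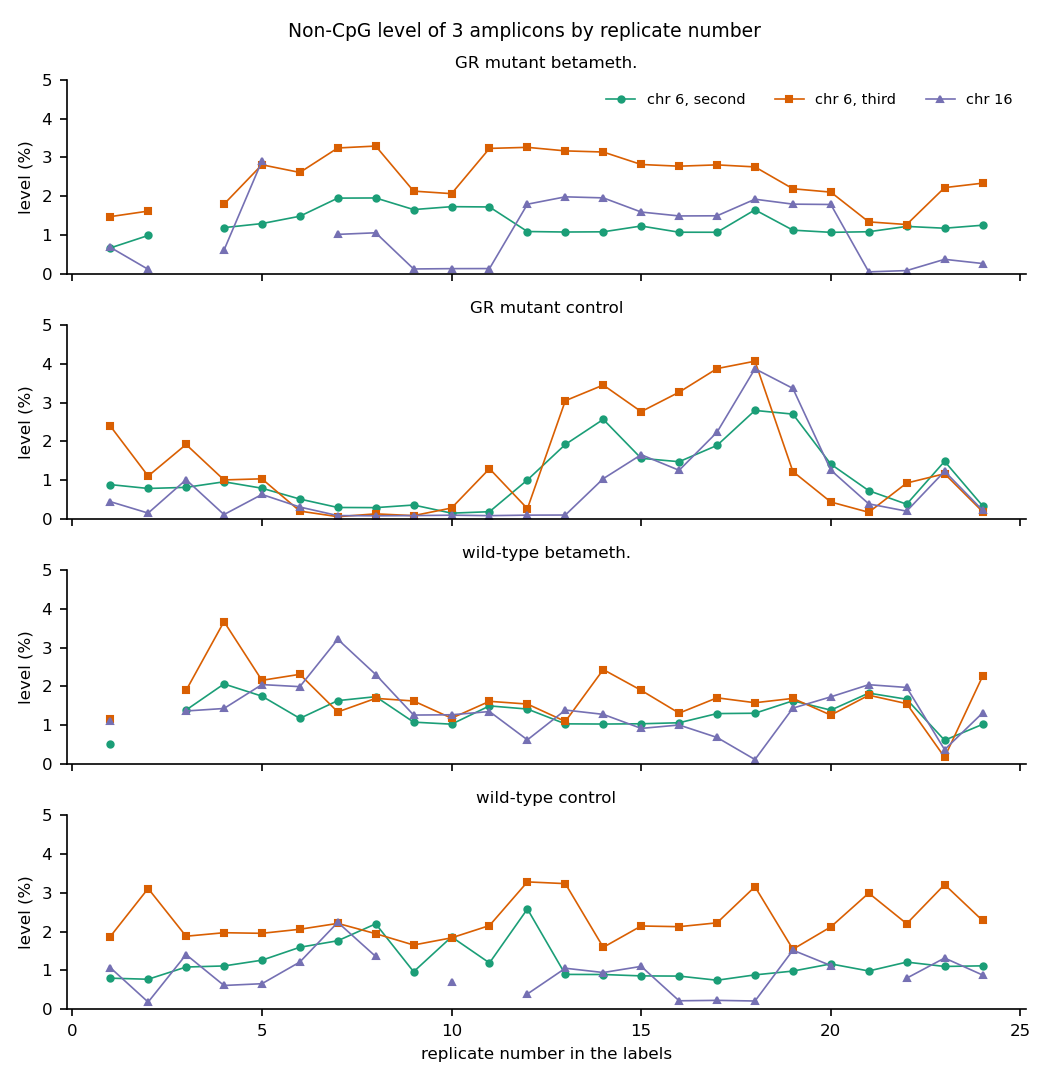
Level (%, share of reads called methylated) of the second and the third chromosome 6 amplicons and the chromosome 16 amplicon against the replicate number in the labels, 1 panel per group; gaps are libraries without enough reads. Neighbouring libraries often sit at nearly the same level, as in the second chromosome 6 amplicon, where neighbours differed by a median of 0.184 percentage points.

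CA sites were called methylated more often than CC or CT sites in all 4 groups. The library level is the mean over amplicons of the reads called methylated divided by all reads at the sites of a class. It averaged 1.89% ± 0.755 at CA, 1.21% ± 0.486 at CT and 0.995% ± 0.476 at CC (SD, n = 94 libraries). Single libraries ran from 0.640% to 5.10% at CA, with a median of 1.84%. At CC they ran from 0.229% to 2.54%, with a median of 0.891%. The ranges overlap across libraries, so classes were compared inside each library and amplicon.

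Inside libraries, CA exceeded CC by 0.893 percentage points (SE 0.0728, above 0 in 89 of 94 libraries). CA exceeded CT by 0.675 percentage points (SE 0.0832, above 0 in 81 of 94). CT exceeded CC by 0.218 percentage points (SE 0.0450, above 0 in 70 of 94). Each had an adjusted p of 1e-05 by a two-sided paired permutation test, the smallest that 100000 resamples can give. The CA differences were positive on average in each of the 8 amplicons, by 0.369 to 1.90 percentage points over CC and by 0.110 to 1.65 over CT. Some of these means rest on few sites. The third chromosome 6 amplicon has 1 CC and 2 CT sites, and chromosomes 2 and 16 have 1 CAG and 1 CAH site each. The p-values cover the spread among libraries at the same sites, not the spread among sites of a dinucleotide. CT minus CC was positive in 6 of 8 amplicons, with a lowest mean of -0.156. It did not pass at 1000 or more reads per site (0.117, adjusted p = 0.0737) or with the median of site levels in place of summed reads (0.0169, adjusted p = 0.648). Both CA differences passed in all 18 alternatives tried for them, between 0.748 and 0.995 for CA minus CC and between 0.532 and 0.751 for CA minus CT.

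No difference between groups in the CA excess passed the threshold. CA minus CC was 0.856 ± 0.420 percentage points in GR mutant betamethasone libraries, 0.811 ± 0.443 in GR mutant controls, 1.03 ± 0.838 in wild-type betamethasone and 0.877 ± 0.975 in wild-type controls (SD, n = 23, 24, 23 and 24). Of 8 tests of a group difference in CA minus CC or CA minus CT, 0 passed by permutation test (0 at an unadjusted p below 0.05, lowest adjusted p = 0.882), and with run means 0 of 8 did (0 at an unadjusted p below 0.05, lowest adjusted p = 0.960, exact permutation test). The group differences had SEs of 0.126 to 0.297 percentage points, which bounds what they could show.

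**Figure D2:**
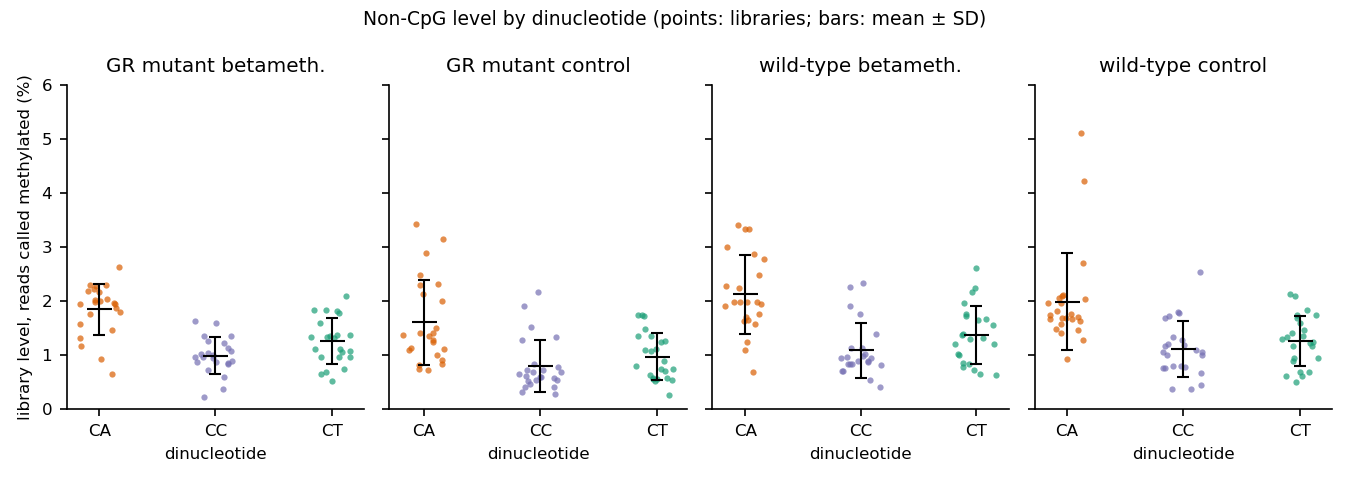
Library level (%) of CA, CC and CT sites, 1 point per library, with mean and SD as bars, in the 4 groups. CA lies highest in each group, with means of 1.85%, 1.60%, 2.12% and 1.99% from left to right.

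Counts of single values past a low limit also had CA highest. Of the values at CA sites, 48.7% were above 1%, against 30.7% at CT and 29.2% at CC sites. Values with 0 methylated reads made up 20.9% at CA, 27.5% at CT and 30.9% at CC sites. A value of 0 in 30 reads allows a true share well above these levels, so zeros in the shallow amplicons carry little weight. By site, 23 of 51 CA, 11 of 72 CT and 3 of 33 CC sites had a median above 1%. The median of site medians was 0.946% at CA and, with CC above CT here, 0.486% at CC and 0.342% at CT. Of the 156 sites, 38 had a median of 0. These counts pool amplicons that differ in level and in classes. Values above 1% made up 64.5% in the third chromosome 6 amplicon, with 6 CAH and 2 CAG among its 11 sites. They made up 12.8% on chromosome 2, with 12 CTH and 4 CTG among its 20.

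No difference by the base after the dinucleotide passed the threshold. CAG exceeded CAH by 0.0229 percentage points (SE 0.173, n = 90 libraries, adjusted p = 0.897). CCG exceeded CCH by 0.0912 (SE 0.0635, n = 88, adjusted p = 0.461). CTG was below CTH by a difference of -0.0635 (SE 0.0843, n = 93, adjusted p = 0.689, all 3 by paired permutation test). For each of these, some alternative turned the sign. CCG minus CCH passed with the median of site levels (0.208, adjusted p = 0.00180) and with reads summed over all amplicons (0.408, adjusted p = 0.000120). All 10 CCG sites lie 1 base from a CpG by construction.

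The third base of CHH sites could be read only where the files list a cytosine 2 bases on. That rule, set after seeing the data, found 6 CAC sites in 3 amplicons, beside 29 other CAH sites, which are CAA or CAT; 12 of these lie in the same 3 amplicons. The medians of the CAC sites had a median of 1.19% and reached 2.74%, against 0.988% and 2.61% for CAA or CAT. Inside libraries and those 3 amplicons, CAC minus the 12 others was -0.102 percentage points (SE 0.108, n = 76, p = 0.353 by paired permutation test). The sign depended on which amplicon was used, since the difference was 0.414 without the first chromosome 6 amplicon and -0.392 without the third.

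Of the 10 highest medians, the third chromosome 6 amplicon, chromosome 8 and chromosome 3 held 3 each. Position 49743980 of chromosome 6, a CAC site, was highest. Its level had a median of 2.74% over 94 libraries, and the range ran from 0.125% to 20.3%, with methylated reads in every library. In GR mutant betamethasone libraries its median was 5.85%, in GR mutant controls 1.24%, in wild-type betamethasone 2.67% and in wild-type controls 3.06%. The neighbouring CA site 2 bases on, 49743982, had a median of 2.16% (0.0499% to 9.58%). Positions 49743980 and 49743982 lie 31 and 33 bp inside the amplicon, just past the limit of 30 bp. The alternative with more than 40 bp leaves both out.

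On chromosome 3 the leading site was 25888118, a CA site with a median of 2.61% (0% to 6.61%, n = 91 libraries). The chromosome 3 site 25888105 was the only CT site among the 10, with a median of 1.78%. A further CA site there, 25888129, had a median of 1.61%. On chromosome 8, 22488764, 22488774 and 22488777 had medians of 2.56%, 2.08% and 2.07% (n = 73). These 3 sites lie within 14 bases of each other and their highest values reached 50.1%, 71.3% and 87.5%. The remaining 2 of the 10 were 49744009 and 41099414 on chromosome 6, with medians of 1.70% and 1.69%. Among the 51 CA sites the median level was lower farther from a CpG (Spearman rho = -0.377), and likewise among the 33 CC sites (rho = -0.379), while among the 72 CT sites rho was 0.00180. The CA site farthest from a CpG, at 70 bp, lies in the first chromosome 6 amplicon, as do those at 41, 46 and 52 bp. That amplicon is also the shallowest, at a median of 199 reads per site. Distance is thus not separated from amplicon and depth. Sites share amplicons and libraries, so these values are descriptions.

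**Figure D3:**
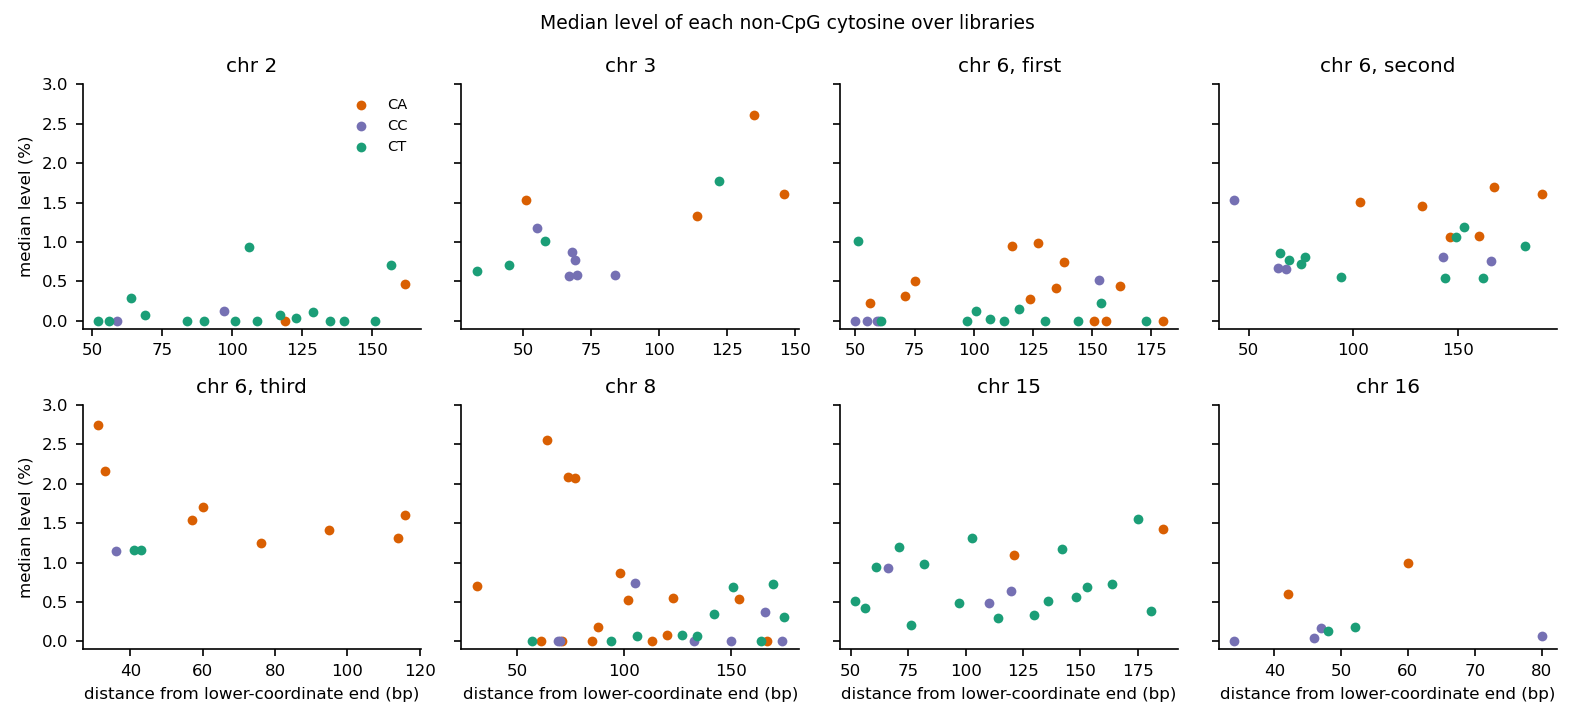
Median level (%) over libraries of each of the 156 sites against its distance in bp from an amplicon end, coloured by dinucleotide, 1 panel per amplicon. The distance runs from the lower-coordinate end, except on chromosomes 2 and 16. There, on the minus strand, it runs from the higher-coordinate end, although the axis label names the lower one. All but 1 of the 10 highest points are CA, and in the third chromosome 6 amplicon each site has a median above 1%.

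The distance from the amplicon end sets which sites were counted. Sites 31 to 40 bp inside had a median of site medians of 0.664% (18 sites). Those 21 to 30 bp inside, just outside the limit, had 0.135% (30 sites), and those within 20 bp had 0% (72 sites). Per the labels, the amplicon-specific part of the primers was 25 to 30 bp long, and bases inside it come from the primer.

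The mean levels of the amplicons ran from 1.05% to 1.96%. Over libraries the third chromosome 6 amplicon averaged 1.96% ± 0.944 (SD, n = 94), chromosome 8 averaged 1.47% ± 0.863 (n = 73) and chromosome 15 averaged 1.46% ± 0.721 (n = 95). The first chromosome 6 amplicon followed with 1.33% ± 0.834 (n = 76), then chromosome 3 with 1.29% ± 0.496 (n = 92) and the second chromosome 6 amplicon with 1.23% ± 0.534 (n = 94). Chromosome 2 averaged 1.21% ± 1.28 (n = 90) and chromosome 16 was lowest at 1.05% ± 0.823 (n = 90). None of the 7 pairs of neighbours in this order differed past the threshold by paired permutation test (0 at 0.05 after adjustment, 1 at an unadjusted p below 0.05, lowest adjusted p = 0.0757 for the third chromosome 6 amplicon minus chromosome 8, 0.408 percentage points). The order came from these same means, so pairs with small gaps were the ones tested. Amplicons farther apart in it, such as the highest and the lowest, were not compared.

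The order depended on single high values. With site values above 20% left out, 5 of the 7 neighbour differences passed, and with the median of site levels 6 passed. In CpGs the same amplicons spread from 36.9% (chromosome 16) to 96.4% (the first chromosome 6 amplicon). The chromosome 16 amplicon was lowest in CpGs and, with all values kept, in non-CpG level. Without values above 20%, chromosome 2 was lowest in each of the 4 groups, at 0.493% in GR mutant betamethasone, 0.287% in GR mutant control, 0.635% in wild-type betamethasone and 0.653% in wild-type control libraries. With all values kept, the first chromosome 6 amplicon, highest in CpGs, was in the middle of the non-CpG order.

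Across the libraries of all 4 groups together, the level of an amplicon went with the mean of the other amplicons in 5 of 8 amplicons by r. By rho it did in 6 of 8 (permutation tests with adjusted p below 0.05). Within groups the relation varied. For the second chromosome 6 amplicon, r was 0.606 and rho 0.643 (n = 93, adjusted permutation p = 0.0001 for r and 6.67e-05 for rho, 10 relations tested). It was 0.575 without the 2 libraries farthest from the median of the amplicon's level. Within groups r was 0.469 in GR mutant betamethasone, 0.720 in GR mutant controls, 0.760 in wild-type betamethasone and 0.438 in wild-type controls. In the same order it was 0.399, 0.639, 0.290 and 0.572 for the first chromosome 6 amplicon. The third had 0.520, 0.757, 0.507 and -0.0752, and chromosome 16 had 0.209, 0.621, 0.199 and 0.0624. Chromosome 3 passed over all libraries by r, but in no group, with 0.269, 0.128, 0.398 and 0.250. For chromosome 8, r was -0.00147 and rho -0.00842 (n = 73, adjusted permutation p = 0.990 and 0.943, r = 0.00279 without 2 libraries). Its r within groups, in the same order, was -0.296, -0.538, -0.148 and 0.0106, with a lowest adjusted permutation p of 0.0703. For chromosome 15, r was 0.0881 and rho 0.124 (n = 93, adjusted permutation p = 0.447 and 0.265, r = 0.0437 without 2 libraries). Its r within groups, in the same order, was 0.462, 0.207, -0.0720 and 0.314, with a lowest adjusted permutation p of 0.0703. Libraries are counted as independent here, although neighbours resemble each other.

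CA and CT levels of a library were weakly related, with r = 0.211 and rho = 0.322 (n = 94, adjusted permutation p = 0.0681 and 0.00314, r = 0.304 without 2 libraries). Within groups, r was 0.760 in GR mutant controls and between -0.174 and 0.239 in the other 3 groups. The relation of the library level to sequencing depth did not pass over all libraries (r = -0.104, rho = -0.156 against log10 of total calls, n = 94, adjusted permutation p = 0.405 and 0.167, r = -0.170 without 2 libraries). Within groups the sign differed, with r = 0.577 in wild-type betamethasone libraries and -0.361 to -0.478 in the other 3. In wild-type betamethasone libraries the relation passed by r (adjusted permutation p = 0.0302) but not by rho (0.106). There, r was 0.404 without 2 libraries and -0.0691 over 6 run means. In the other 3 groups the lowest adjusted permutation p of r was 0.0615.

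Averaged over amplicons, no difference in level between groups passed the threshold. It was 1.42% ± 0.358 in GR mutant betamethasone libraries (n = 23) and 1.12% ± 0.479 in GR mutant controls (n = 24). It was 1.61% ± 0.377 in wild-type betamethasone libraries (n = 23) and 1.40% ± 0.329 in wild-type controls (SD, n = 24). GR mutant libraries differed by 0.301 percentage points between betamethasone and control (SE 0.123, adjusted p = 0.104) and wild-type libraries by 0.203 (SE 0.103, adjusted p = 0.146, both by permutation test). Between genotypes, GR mutant minus wild-type was -0.285 among controls (SE 0.119, adjusted p = 0.104) and -0.187 with betamethasone (SE 0.108, adjusted p = 0.206, permutation tests). Of the 16 tests over all sites, CA, CC and CT, 0 passed and 5 had an unadjusted p below 0.05. None of the 4 tests of a different betamethasone effect in the genotypes passed (0 at an unadjusted p below 0.05, lowest adjusted p = 0.697, permutation tests). With run means 0 of the 16 passed (0 at an unadjusted p below 0.05, lowest adjusted p = 0.462, exact permutation test). The count of passing group tests was 3 with the median of site levels. The wild-type difference turned to -0.0580 without site values above 20%, with 1.29% ± 0.289 against 1.35% ± 0.307.

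**Figure D4:**
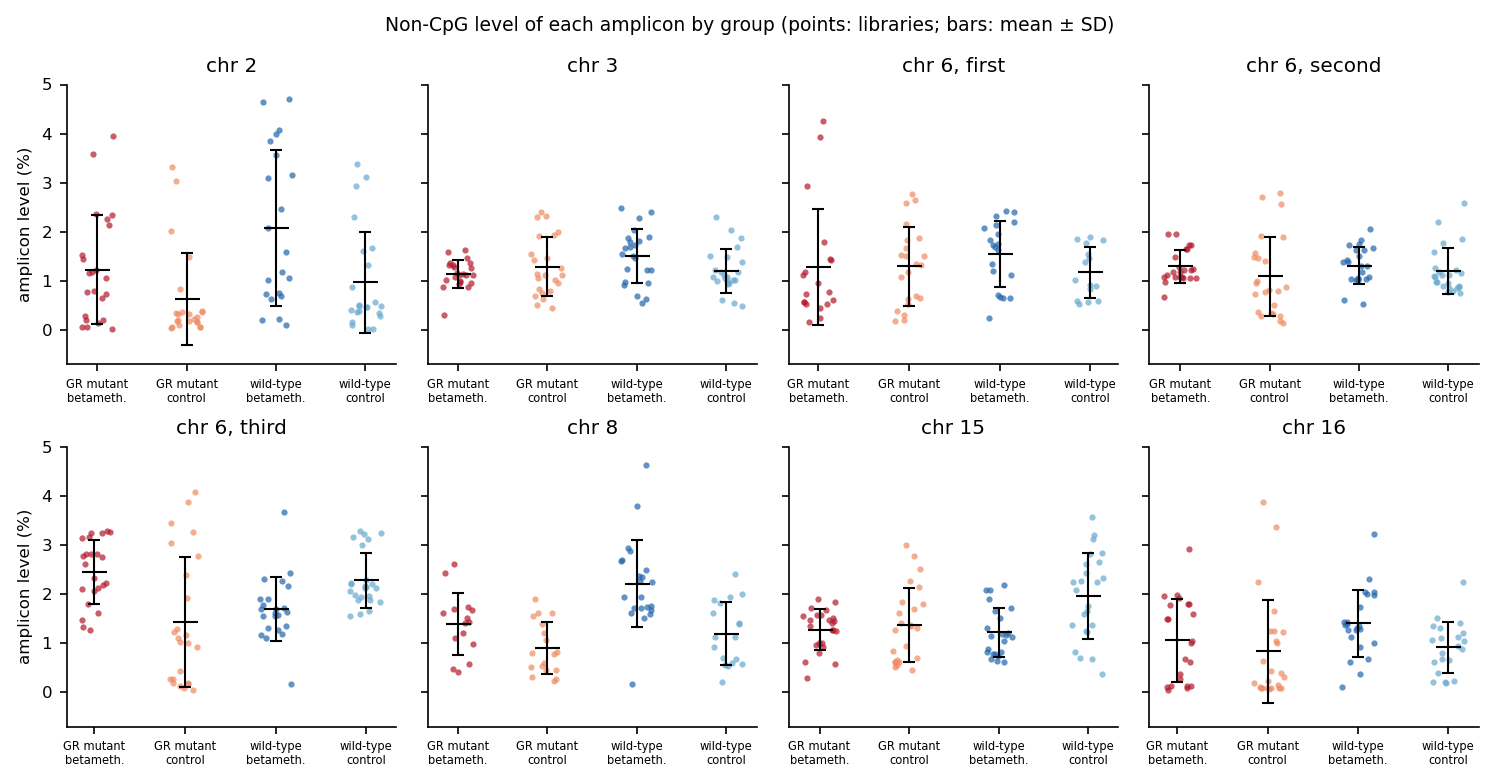
Level (%) of each amplicon in the 4 groups, 1 point per library, with mean and SD as bars. In the third chromosome 6 amplicon the GR mutant controls spread from 0.0545% to 4.07%. The wild-type betamethasone libraries lie highest on average in every amplicon except the third chromosome 6 amplicon and chromosome 15.

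Single amplicons did differ between groups. Of 32 tests (8 amplicons, 4 pairs of groups), 11 passed by permutation test. The third chromosome 6 amplicon passed in all 4 pairs. GR mutant betamethasone libraries had 2.45% ± 0.655 (1.27% to 3.29%, median 2.61%, n = 23), against 1.43% ± 1.33 in GR mutant controls (0.0545% to 4.07%, median 1.07%, n = 24). Wild-type betamethasone libraries had 1.69% ± 0.647 (0.174% to 3.67%, median 1.63%, n = 23), against 2.28% ± 0.558 in wild-type controls (1.54% to 3.28%, median 2.14%, n = 24). The groups overlap in each pair. With betamethasone the level was higher by 1.02 percentage points in GR mutants (SE 0.304, adjusted p = 0.0144, permutation test), and all 23 treated libraries lay above the control median. In wild-type larvae it was lower by a difference of -0.590 (SE 0.177, adjusted p = 0.0122, permutation test). GR mutant minus wild-type was -0.853 among controls (SE 0.294, adjusted p = 0.0277) and 0.761 with betamethasone (SE 0.192, adjusted p = 0.00368, permutation tests). With run means, all 4 missed the threshold, at adjusted p from 0.0693 to 0.262 by exact permutation test.

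On chromosome 15, wild-type betamethasone libraries had 1.22% ± 0.500 (0.626% to 2.19%, median 1.14%, n = 23), against 1.97% ± 0.873 in wild-type controls (0.372% to 3.57%, median 2.17%, n = 24). The difference was -0.745 percentage points (SE 0.206, adjusted p = 0.0103, permutation test), and 1 of 23 treated libraries lay above the control median. GR mutant controls had 1.37% ± 0.760 (n = 24) and were lower than wild-type controls by a difference of -0.599 (SE 0.236, adjusted p = 0.0447, permutation test). Both lost the call with run means, at adjusted p = 0.104 and 0.225 (exact permutation test).

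On chromosome 8, wild-type betamethasone libraries had 2.22% ± 0.889 (n = 22), against 1.19% ± 0.639 in wild-type controls (n = 18), a difference of 1.02 percentage points (SE 0.242, adjusted p = 0.00288, permutation test). GR mutant betamethasone libraries had 1.39% ± 0.636 (n = 15) and were lower than wild-type betamethasone libraries by a difference of -0.823 (SE 0.251, adjusted p = 0.0159, permutation test). On chromosome 2, wild-type betamethasone libraries had 2.09% ± 1.59 (n = 21), against 0.972% ± 1.03 in wild-type controls (n = 23), a difference of 1.12 percentage points (SE 0.408, adjusted p = 0.0306, permutation test). With run means these 3 differences were 1.06, -0.903 and 1.15 and passed, each at an adjusted p of 0.0462 by exact permutation test; no other amplicon test did. They shrank when single values above 20% were left out. The chromosome 8 differences were then 0.0887 (adjusted p = 0.798) and -0.251 (0.555), and the chromosome 2 difference -0.0177 (0.956, permutation tests).

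The remaining 2 amplicons with a call were chromosomes 3 and 16. On chromosome 3, GR mutant betamethasone libraries had 1.14% ± 0.280 (n = 23), against 1.51% ± 0.552 in wild-type betamethasone libraries (n = 23), a difference of -0.362 percentage points (SE 0.129, adjusted p = 0.0286, permutation test). On chromosome 16, wild-type betamethasone libraries had 1.40% ± 0.679 (n = 23), against 0.914% ± 0.522 in wild-type controls (n = 21), a difference of 0.489 (SE 0.182, adjusted p = 0.0331, permutation test). With run means these gave adjusted p = 0.0808 and 0.104 (exact permutation test). The first and the second chromosome 6 amplicons passed in no pair.

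Site by site, a beta-binomial likelihood ratio test had 1 observation per library. It was fitted to all cytosines with enough reads, CpGs included, and adjusted over all of them. These were 309 cytosines between the control groups and in wild-type larvae, and 308 in the pairs with GR mutant betamethasone libraries. Between the control groups, 23 of the 156 sites passed, all 23 lower in GR mutants, and 37 had an unadjusted p below 0.05. The share of all 309 cytosines, which include the 156, that passed in this comparison was 13.6%, against 14.7% of the non-CpG sites. As lower, 10.4% of all 309 passed. By class, 14 of 51 CA sites passed (27.5%), 7 of 72 CT sites (9.72%) and 2 of 33 CC sites (6.06%). Of the 11 sites in the third chromosome 6 amplicon 10 passed, and of the 21 in the second 8 passed. The 11 sites are 6 CAH, 2 CAG, 2 CTH and 1 CCG, so class and amplicon are not separated in these shares. These counts depended on the test. A permutation test of equally weighted libraries called 11 of the 156 sites, of which 5 were among the 23, with 2 in the third and 0 in the second chromosome 6 amplicon. A block for the replicate number also left 2 and 0 there. The level of the second amplicon as a whole differed by -0.110 percentage points between these groups and did not pass (adjusted p = 0.695, permutation test).

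The lowest adjusted p was at 49744044, a CAG site in the third chromosome 6 amplicon. GR mutant controls had 0.588% ± 0.881 there (0.0375% to 4.00%, median 0.231%), against 2.50% ± 1.41 in wild-type controls (0.175% to 4.37%, median 1.92%, n = 24 each). The difference was -1.91 percentage points (SE 0.340, adjusted p = 6.68e-06, beta-binomial test), and 22 of 24 GR mutant libraries lay below the wild-type median. At 49743982, GR mutant controls had 1.34% ± 1.59, against 3.14% ± 1.21 in wild-type controls (n = 24 each, adjusted p = 2.68e-05, beta-binomial test). On chromosome 16, 8404188, a CTG site, had 0.141% ± 0.173 in GR mutant controls (n = 24), against 1.12% ± 1.11 in wild-type controls (n = 21, adjusted p = 0.00987, beta-binomial test). All 24 GR mutant libraries lay below the wild-type median. Other called sites differed little in mean. At 41099407, GR mutant controls had 1.17% ± 1.46 (median 0.363%), against 1.22% ± 0.488 in wild-type controls (median 1.21%, n = 24 each). At 14499735 on chromosome 2, all GR mutant controls had 0%. Wild-type controls averaged 0.241% there, with a median of 0% and a highest value of 5.26% (n = 23 each).

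With betamethasone in GR mutants, 10 of the 156 sites passed, 9 higher and 1 lower, and 30 had an unadjusted p below 0.05. The share of all 308 tested cytosines that passed was 4.22%, against 6.41% of the non-CpG sites. The 308 include the low sites near the amplicon ends, so these 2 shares are not like for like. By direction, 3.25% of the 308 passed as higher and 0.974% as lower. Of the 10, 4 lay in the third chromosome 6 amplicon. At 49744044, GR mutant betamethasone libraries had 2.01% ± 0.953 (0.125% to 3.93%, median 1.83%, n = 23), against 0.588% ± 0.881 in GR mutant controls (n = 24, adjusted p = 8.52e-05, beta-binomial test). At 49743982, 3.71% ± 2.50 in GR mutant betamethasone libraries stood against 1.34% ± 1.59 in GR mutant controls (n = 23 and 24, adjusted p = 0.00354, beta-binomial test). In the second chromosome 6 amplicon, 41099396, a CT site, had 2.77% ± 1.32 in GR mutant betamethasone libraries (0.0375% to 5.30%, median 2.83%, n = 23), against 1.16% ± 1.48 in GR mutant controls (0.0251% to 4.96%, median 0.434%, n = 24, adjusted p = 0.00220, beta-binomial test). The single lower site was 4079260 on chromosome 15, a CT site, with 0.860% ± 0.986 in GR mutant betamethasone libraries and 2.50% ± 2.48 in GR mutant controls (n = 24 each, adjusted p = 0.0370, beta-binomial test).

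With betamethasone in wild-type larvae, 7 of the 156 sites passed, 1 higher and 6 lower, and 27 had an unadjusted p below 0.05. The share of all cytosines that passed was 5.83%, against 4.49% of the non-CpG sites. By direction, 1.29% of all cytosines passed as higher and 4.53% as lower. The lowest adjusted p was shared by 4079239 and 49744025. At 4079239 on chromosome 15, a CT site, wild-type betamethasone libraries had 0.738% ± 0.945 (0% to 2.98%, median 0.225%, n = 23), against 2.53% ± 1.94 in wild-type controls (0.0125% to 7.31%, median 2.20%, n = 24, adjusted p = 0.00917, beta-binomial test). The single higher site was 8404194 on chromosome 16, a CC site, with 0.611% ± 0.754 in wild-type betamethasone libraries (n = 23) and 0.0989% ± 0.225 in wild-type controls (n = 21, adjusted p = 0.0213, beta-binomial test).

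Among betamethasone-treated larvae, 8 of the 156 sites passed between genotypes, 2 higher and 6 lower in GR mutants, and 29 had an unadjusted p below 0.05. The share of all 308 tested cytosines that passed was 5.84%, against 5.13% of the non-CpG sites. By direction, 1.95% of the 308 passed as higher and 3.90% as lower. The lowest adjusted p was at 8404180 on chromosome 16, a CA site. GR mutant betamethasone libraries had 0.600% ± 1.11 there (0% to 5.17%, median 0.201%, n = 22), against 4.11% ± 4.21 in wild-type betamethasone libraries (0.108% to 16.0%, median 2.90%, n = 23, adjusted p = 0.00475, beta-binomial test). At 41099341, a CTG site, GR mutant betamethasone libraries had 0.296% ± 0.311 (n = 23), against 1.12% ± 0.809 in wild-type betamethasone libraries (n = 23, adjusted p = 0.00827, beta-binomial test). With run means and an exact permutation test, 0 of the non-CpG sites passed in any of the 4 pairs; 6 against 6 values allow a p no smaller than 0.00216. The 4 pairs share groups and are not independent of each other.

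Most sites were low in most libraries, but a few single values were very high. Of the 13325 values, 60 were above 20% (0.450%), at 30 sites in 44 libraries. By amplicon, 25 lay on chromosome 2, 18 on chromosome 8, 16 in the first chromosome 6 amplicon and 1 in the third, and the other 4 amplicons had 0. By dinucleotide, 26 were CA, 2 CC and 32 CT, which is 0.616% of the CA, 0.0708% of the CC and 0.510% of the CT values. These values rested on 54 to 3346 reads each, with a median of 457. The other sites of the same amplicon and library had a median level of 0.0824% (median over the 60 values). Of the 60, 49 stood alone in their library and amplicon. The other 11 shared theirs in 5 cases, as in wild-type betamethasone library 20, where 22488731 reached 37.8% and 22488774 reached 53.1%. The adjacent sites 27961693 and 27961694 in the first chromosome 6 amplicon were both above 20% in GR mutant betamethasone libraries 7 and 8.

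The highest was 88.4% at 14499822, a CTC site on chromosome 2, in wild-type betamethasone library 22, with 901 of 1019 reads called methylated (95% interval 86.3% to 90.2%, Wilson). The next was 87.5% at 22488777 on chromosome 8 in wild-type betamethasone library 14, with 1159 of 1325 reads. The third was 77.2% at 14499757, in wild-type betamethasone library 4. At 14499780, a CTG site, 7 libraries were above 20%. They were 5 wild-type betamethasone libraries at up to 76.6% and 2 wild-type control libraries at 21.4% and 63.3%. Its medians over all libraries of a group were 0.728% in GR mutant betamethasone, 0.965% in GR mutant control, 2.76% in wild-type betamethasone and 0.850% in wild-type control libraries. At 14499769, 3 GR mutant betamethasone libraries reached 41.6%, 64.7% and 75.2%. In all, 14 sites had 1 such value and 16 had several. Of those 16, 12 had all of them in 1 group and 4 in more than 1.

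At some sites, high values recurred in libraries with neighbouring numbers. Position 22488764 on chromosome 8 had 50.1% and 49.9% in GR mutant betamethasone libraries 23 and 24. Position 22488777 was above 20% in wild-type betamethasone libraries 13, 14, 15 and 24, and 22488774 in libraries 5, 6, 7, 19 and 20 of the same group. Chromosome 2 was mixed. There, 14499780 was above 20% in wild-type betamethasone libraries 8, 9, 11, 18 and 21, and 14499769 in GR mutant betamethasone libraries 16, 17 and 22. Numbers were apart for 14499822 (wild-type betamethasone 12 and 22) and 14499763 (GR mutant control 8, 11 and 16). Among neighbours of a library with a high value, 48 of 108 values at the same site were above 5% (44.4%). Among the other libraries of the same group, 202 of 1104 were (18.3%). Both counts run over the 60 high values in turn. A value at a site with several high values in a group was therefore counted more than once, and neighbouring high values counted each other.

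Wild-type betamethasone libraries held 31 of the 60 values. At least 1 was found in 10 of 23 GR mutant betamethasone, 8 of 24 GR mutant control, 20 of 23 wild-type betamethasone and 6 of 24 wild-type control libraries with at least 4 amplicons. The number per library was 1.35 ± 0.885 in wild-type betamethasone libraries and 0.250 ± 0.442 in wild-type controls (SD, n = 23 and 24, adjusted p = 8.00e-05 by permutation test). With run means the difference also passed (1.07 per library, adjusted p = 0.00866, exact permutation test with 6 values per group). GR mutant betamethasone libraries held 0.652 ± 0.982 and were lower than wild-type betamethasone libraries (adjusted p = 0.0454, permutation test), a call that was lost with run means (adjusted p = 0.165, exact permutation test). In GR mutants, betamethasone and control libraries held 0.652 ± 0.982 and 0.333 ± 0.482 (adjusted p = 0.264, permutation test). The count was chosen as a measure after the high values had been seen. Depth on chromosome 8 was also highest in wild-type betamethasone libraries, and its part in the count was not tested.

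**Figure D5:**
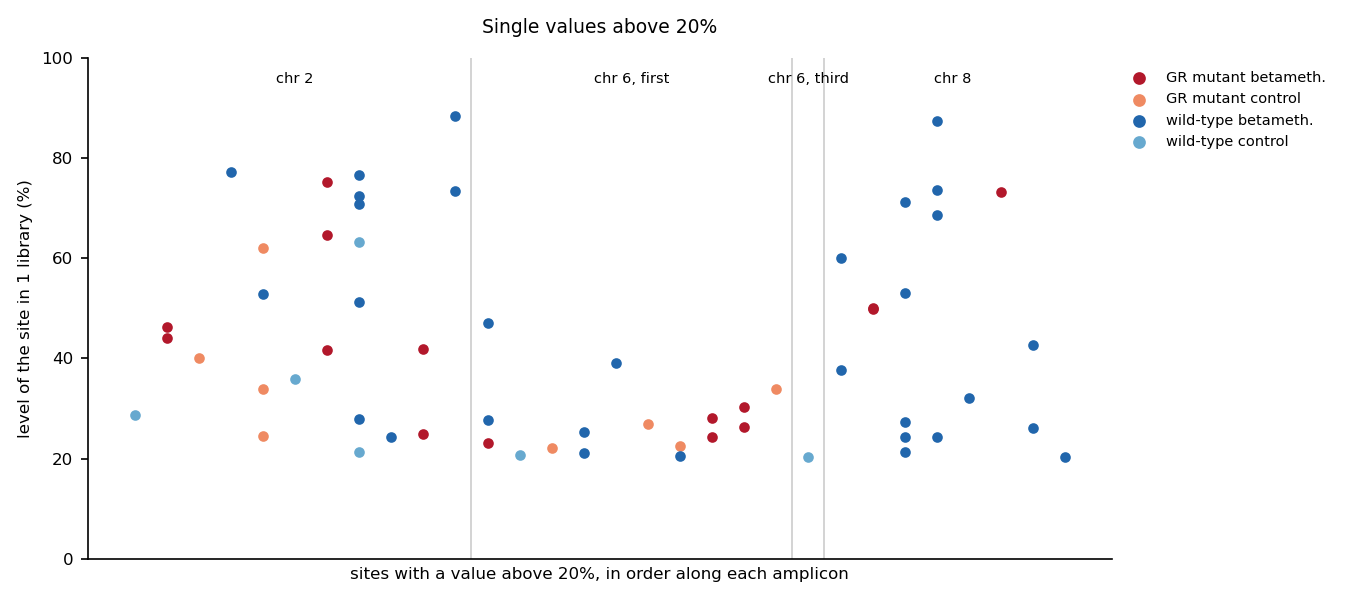
The 60 single values above 20%: level (%) of a site in 1 library against the site, in order along each amplicon, with 1 column per site and colour for the group. The wild-type betamethasone libraries give 31 of the points, and the 2 highest, 88.4% on chromosome 2 and 87.5% on chromosome 8, are among them.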

How the data were processed

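Per the labels' protocols, DNA of larval heads was converted with bisulfite, amplified from 100 pg for 40 cycles with primers of each amplicon, pooled and barcoded. The submitters' processing notes name BS-Seeker2, cutadapt and FastQC, without versions, and build GRCz10. The authors' deposited files give each cytosine's context, its total read count, its count of methylated calls and the level as a fraction. Counts were used and the deposited fractions were not.

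Groups came from the labels. Libraries weighed equally. Classes were compared by sign flips inside libraries and groups by permutation (100000 resamples, two-sided; exact for run means). Sites with at least 30 reads in at least 10 libraries of both groups were tested by beta-binomial likelihood ratio. Adjustment was by Benjamini-Hochberg within each family of tests, with a threshold of 0.05. In simulated data with the depths of the wild-type groups (156 sites), the beta-binomial test gave p below 0.05 at 7.05% of unchanged sites and the permutation test at 5.13%; for 2-fold changes 62.2% and 45.5% were found. Simulated libraries were independent, and the same assumed overdispersion (spread between libraries beyond counting) was used for all sites and both groups. In the data the spread differed between sites and between groups, so these shares hold for the simulated setting only.

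Sites named are the 10 highest medians, the 5 highest single values and up to 10 called sites per pair; others were chosen after their values were seen. The members, lists and tests were chosen with earlier results of these data known. Genes are not named, since no annotation of the build was used. Tools were scipy 1.17.1, numpy 2.4.6, matplotlib 3.10.9 and pandas 2.3.3 under Python 3.11.15.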

Additional observations from a re-analysis of the deposited data

Results flagged for a closer look

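The effect of betamethasone on the non-CpG level of the third chromosome 6 amplicon differed between the genotypes. It was 1.02 percentage points in GR mutants and -0.590 in wild-type larvae, so that the GR mutant effect was higher by 1.61 (SE 0.351, n = 94 libraries, adjusted p = 0.000480 by a permutation of residuals, 8 amplicons tested). The test was added after the data had been seen. With run means the difference was 1.56 and did not pass (adjusted p = 0.0605). No other amplicon passed; chromosome 3 (-0.445) and chromosome 15 (0.647) each had an adjusted p of 0.0717 by the same permutation test.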

How the results depend on the processing

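CA minus CC and CA minus CT kept their direction and passed under each alternative. CT minus CC was 0.117 at 1000 or more reads and 0.0169 with the median of site levels, and did not pass. CAG minus CAH was -0.0450 at 1000 reads, -0.0386 with site medians, -0.0872 without values above 20%, -0.0180 without the first chromosome 6 amplicon and -0.229 without chromosome 8, and passed at 0.336 with more than 40 bp inside the amplicon. CCG minus CCH was -0.0567 at 1000 reads and -0.0373 without the second chromosome 6 amplicon. It passed at 0.205 with more than 40 bp or without chromosome 16, at 0.208 with site medians and at 0.408 with reads summed over amplicons. CTG minus CTH was 0.0734 with site medians, 0.0159 in libraries with all 8 amplicons and 0.0225 without the first chromosome 6 amplicon. CAC minus CAA or CAT was -0.406 with more than 40 bp, 0.246 with site medians, 0.285 with summed reads, 0.414 without the first and -0.392 without the third chromosome 6 amplicon.

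For the level over all sites, wild-type betamethasone minus control was -0.190 with site medians, -0.0580 without values above 20% and -0.204 with summed reads; it passed at 0.353 without the third chromosome 6 amplicon and at 0.371 without chromosome 15. GR mutant betamethasone minus control passed at 0.336 without the first chromosome 6 amplicon. GR mutant minus wild-type controls passed at -0.273 with site medians and at -0.330 without the first chromosome 6 amplicon. With betamethasone it was 0.0518 with summed reads and passed at -0.337 without the third chromosome 6 amplicon. Group tests that passed numbered 3, 3, 2 and 1 with site medians and without the first, the third chromosome 6 and the chromosome 15 amplicon. Of the 8 tests of group differences in CA minus CC or CT, 2 passed with summed reads, and interactions in 3 of 4 with site medians. Amplicon tests that passed numbered 7 of 23 at 1000 reads, 5 with site medians, 5 without values above 20% and 3 with run means; the chromosome 2 difference was then -0.00542 with site medians and -0.0177 without values above 20%. Amplicon order gave 1 pass at 10 reads, 6 with site medians and 5 without values above 20%.

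Of the sites called, 0 remained in each pair with run means. For GR mutant betamethasone minus control and for the betamethasone-treated genotypes, 5 were called at 1000 reads in each. With a permutation test of equally weighted libraries the control genotypes gave 11, of which 5 were among the 23, and the betamethasone-treated genotypes 13, which held 7 of the 8. Of the 7 calls for betamethasone in wild-type larvae, 1 was among its 5. A block for the replicate number left the control genotypes 5 calls, of which 4 were among the 23, and 10 amplicon tests passed. Correlations of same-numbered libraries exceeded 0.1 in 16 of 23 pairs of GR mutant betamethasone and control libraries (median r = 0.219). They did so in 9 of 22 pairs of the betamethasone-treated genotypes and 7 of 24 of the control genotypes (medians 0.0282 and -0.0184). In wild-type larvae, betamethasone against control, 10 of 23 did (median 0.0424). Whether the numbers pair the libraries was not tested. Depth limits the first chromosome 6, chromosome 3 and chromosome 8 amplicons most.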
